A study of Mus musculus with 36 samples.

Results

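Transcripts of 8 genes that mark stem cells of the mouse small intestine were followed through 36 libraries of jejunal organoids. The 8 genes were Lgr5, Olfm4, Ascl2, Smoc2, Msi1, Bmi1, Hopx and Lrig1. They were taken by symbol from the 52636 genes listed in each library, and a gene under a mean of 0.5 CPM (counts scaled to the size of the library) was to be reported as not detected. None of the 8 fell under that limit, and each had counts in each of the 36 libraries. All 8 are annotated as protein coding in GRCm38, where Lgr5 lies at chr10:115450311-115587780, Olfm4 at chr14:79984081-80023139, Ascl2 at chr7:142966829-142969264, Smoc2 at chr17:14279506-14404790, Msi1 at chr5:115429599-115455698, Bmi1 at chr2:18677018-18686629, Hopx at chr5:77086988-77115121 and Lrig1 at chr6:94604529-94700158.

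The organoids were grown from jejunal crypts of C57BL/6 mice and kept in IntestiCult, a complete culture medium, which is the base of all 6 conditions. Complete media with a control IgG was the untreated condition. QCM + IgG and SCM + IgG held media conditioned by mouse embryonic fibroblasts, made quiescent by serum deprivation in QCM and senescent in SCM, and Wnt5a + IgG held recombinant Wnt5a, a ligand of noncanonical Wnt signaling. SCM + anti-Ptk7 and Wnt5a + anti-Ptk7 held an antibody to Ptk7, a pseudokinase receptor of Wnt signaling, in place of IgG. The antibody was compared with IgG within SCM and within Wnt5a, and no library held anti-Ptk7 in complete media or in QCM. An effect of the antibody on untreated organoids can therefore not be told apart here. Each condition had 6 libraries, numbered 1 to 6, and the crypts came from 6 mice, which the labels do not match to the numbers. P-values therefore measure the spread between these libraries.

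Crypt base columnar cells divide at the bottom of the crypt, between Paneth cells, and renew the epithelium under canonical Wnt and Notch signals. Lgr5 is the R-spondin receptor that marks these cells, Olfm4 is a secreted glycoprotein and Notch target made by them, Ascl2 is a Wnt-responsive transcription factor that sets their fate, and Smoc2 is a secreted matrix protein of the Lgr5 signature. Msi1 is an RNA-binding protein of stem and early progenitor cells. Bmi1, a Polycomb subunit, Hopx, a small homeodomain protein that does not bind DNA, and Lrig1, a negative regulator of ErbB receptors, were described as markers of slower cycling or reserve stem cells above the crypt base, although their transcripts are also found in crypt base columnar cells.

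The libraries held between 9581589 and 21029769 counts on genes (median 13490071). The median correlation of a library with the others of its condition ranged from 0.947 to 0.978 across the 36 libraries, and the lowest were SCM + anti-Ptk7 replicate 4 (0.947) and SCM + IgG replicate 1 (0.949). Of 9 fibroblast markers 2 were tested and 3 were at 0 in all libraries, and their summed level lay between 0.897 and 10.6 CPM. Of 7 immune cell markers 2 were tested and 2 were at 0 in all libraries, with a summed level of 9.57 to 19.8 CPM.

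The upstream sequence of Ascl2, Bmi1 and Hopx is shown because these were the members with a RefSeq promoter stretch free of annotated exons. The Ascl2 level was higher, and the Hopx level lower, in Wnt5a than in complete media at an adjusted p under 0.05, and Bmi1 did not pass the test. RefSeq gave promoters of 5 of the 8 genes in GRCm38.p6, and each stretch printed here is the 250 bases before the annotated start, 5′ to 3′ on the gene's strand. The stretches of Olfm4 and Lrig1 overlap annotated exons and are not printed. The stretch of Ascl2 lies at chr7:142969265-142969514 on the minus strand, that of Bmi1 at chr2:18676768-18677017 on the plus strand and that of Hopx at chr5:77115124-77115373 on the minus strand. Capitals mark every match, on either strand, to 4 short motifs, which are ACAAAG or TCAAAG for TCF/LEF, TGGGAA for RBPJ, CATTCC for TEAD and CANNTG for the E-box bound by basic helix-loop-helix factors such as Ascl2.
Ascl2: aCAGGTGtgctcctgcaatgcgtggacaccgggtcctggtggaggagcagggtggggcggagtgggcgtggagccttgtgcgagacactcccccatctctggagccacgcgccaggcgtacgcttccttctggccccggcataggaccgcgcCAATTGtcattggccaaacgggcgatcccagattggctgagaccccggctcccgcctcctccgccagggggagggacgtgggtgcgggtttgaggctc
Bmi1: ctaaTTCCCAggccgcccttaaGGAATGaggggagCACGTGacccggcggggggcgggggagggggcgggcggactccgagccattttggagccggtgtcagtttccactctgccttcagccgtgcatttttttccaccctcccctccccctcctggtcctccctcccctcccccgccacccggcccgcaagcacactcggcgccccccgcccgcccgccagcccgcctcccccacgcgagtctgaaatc
Hopx: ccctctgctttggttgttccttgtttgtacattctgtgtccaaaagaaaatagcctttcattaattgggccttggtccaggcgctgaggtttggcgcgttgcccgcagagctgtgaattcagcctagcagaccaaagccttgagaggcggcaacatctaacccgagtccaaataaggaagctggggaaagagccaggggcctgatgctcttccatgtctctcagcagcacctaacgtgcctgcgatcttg

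The Ascl2 stretch held 2 E-boxes, at -249 and -98 from the start, and no match to the other 3 motifs. The Bmi1 stretch held 1 match each to RBPJ, TEAD and the E-box, at -246, -228 and -215, which did not overlap. The Hopx stretch held no match to the 4 motifs. RefSeq lists another start of Hopx, whose stretch at chr5:77095268-77095517 on the minus strand also overlaps annotated exons, is not printed and held 1 E-box, at -86. Over 32851 RefSeq promoters and the same 250 bases, 66.2% held an E-box, 27.6% a TCF/LEF match, 21.6% an RBPJ match and 12.6% a TEAD match. The stretches had a GC content of 67.6% for Ascl2, 70.4% for Bmi1 and 52.4% for Hopx. These matches describe letters and show no binding.

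Per kilobase of exon, Hopx transcripts were the most abundant of the 8 genes in complete media, with a mean of 269 CPM per kilobase (SD 13.8, n = 6). Smoc2 followed with 184 ± 14.7 (SD) and Olfm4 with 159 ± 33.1 CPM per kilobase, and their libraries overlapped. Lrig1 stood at 45.9 ± 6.19, Lgr5 between 13.5 and 28.4 and Ascl2 between 11.8 and 22.3 CPM per kilobase, and of these only Lgr5 and Ascl2 overlapped. Bmi1 had a level of 5.37 ± 0.54 and Msi1, the lowest, of 0.338 ± 0.121 CPM per kilobase. Lgr5, the best known of the markers, was thus among the scarcer of the 8 transcripts per kilobase of exon. Per kilobase of coding sequence the 8 genes had the same order in complete media, from Hopx (1861 CPM per kilobase of coding sequence) and Smoc2 (925) through Olfm4 (291), Lrig1 (78.4), Lgr5 (75.5), Ascl2 (34.9) and Bmi1 (22) to Msi1 (1.77). The overlaps changed with this length. Lgr5 then overlapped Lrig1 and Ascl2 overlapped Bmi1, while Lgr5 no longer overlapped Ascl2, nor Smoc2 Olfm4. The paper's methods name coding sequences as what was counted, yet genes annotated as non-coding also held counts. The length that fits these counts is therefore uncertain.

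**Figure D1:**
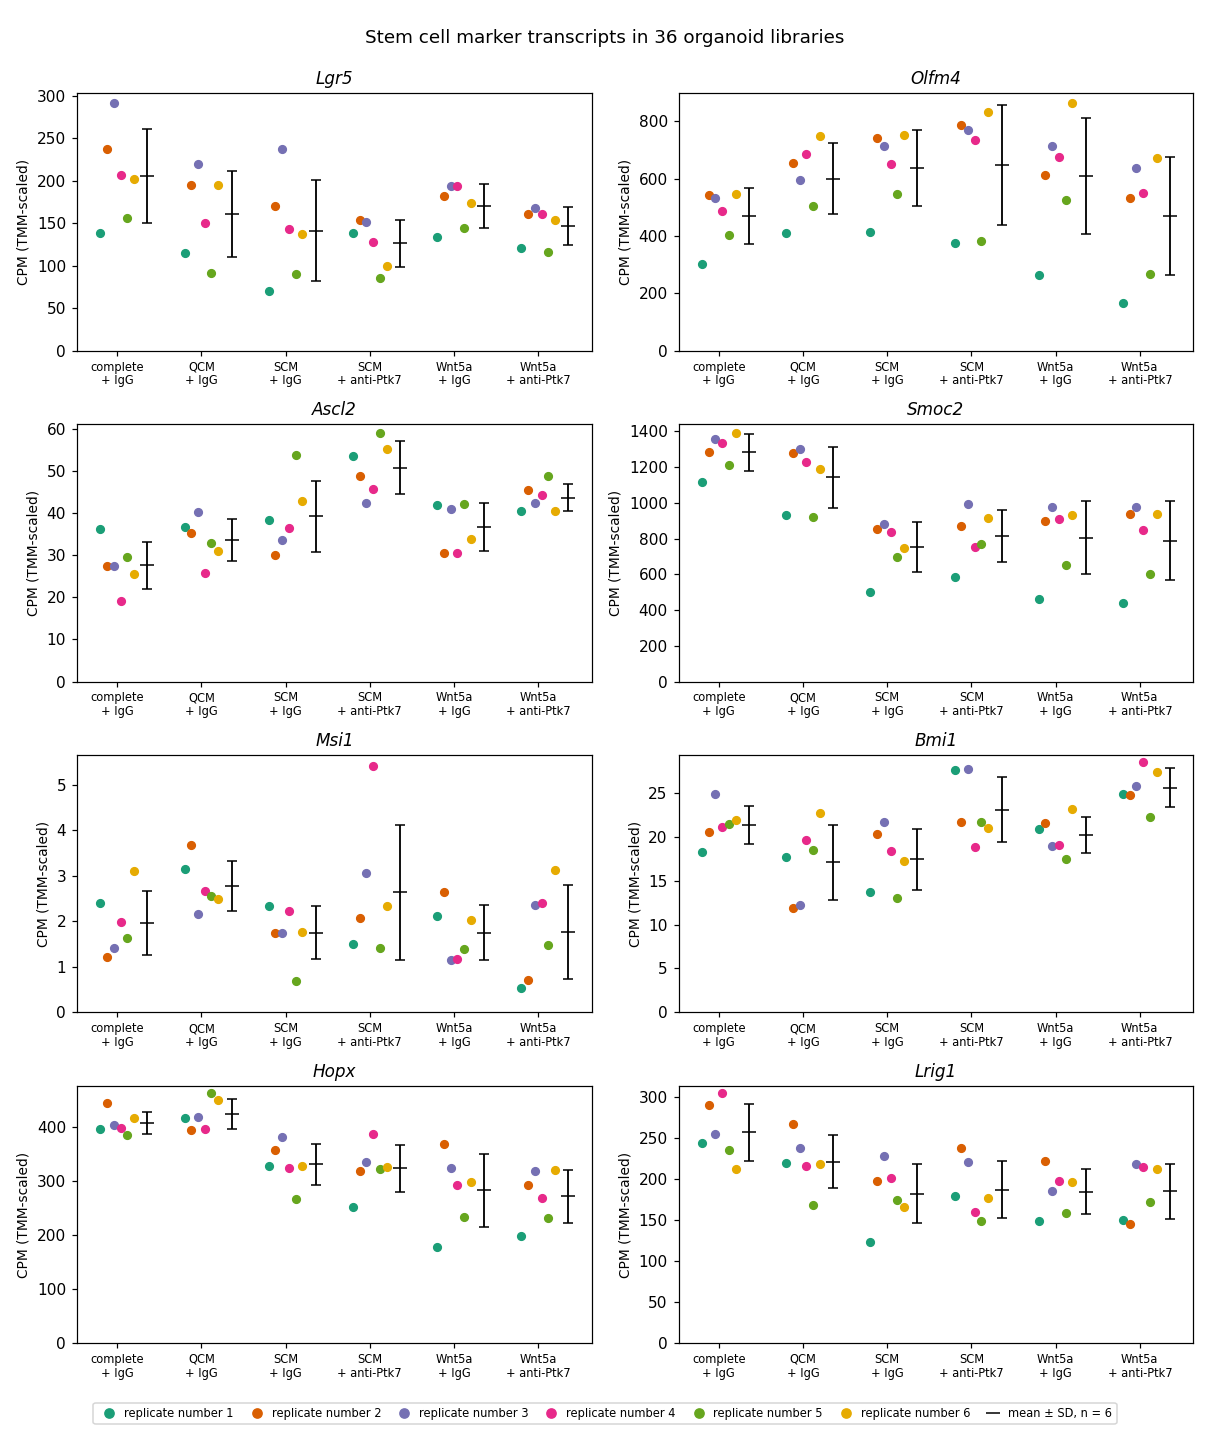
Level of each of the 8 genes in CPM (y axis, linear, scaled by the trimmed mean of M values) in the 36 libraries by condition (x axis). Points are libraries coloured by replicate number, and bars are the mean ± SD of 6 libraries. The libraries of SCM + IgG and Wnt5a + IgG lie below those of complete media + IgG, without overlap, for Smoc2 and Hopx, and points of number 1 are the lowest of each condition for Olfm4.

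The first question was how the markers of the crypt base changed in SCM and in Wnt5a. A gene was called where edgeR's quasi-likelihood test gave a Benjamini-Hochberg adjusted p under 0.05 over 15497 genes together with a fold change over 1.5. Smoc2 was the one member called against complete media, lower in both SCM and Wnt5a, whereas Ascl2 was higher and Lrig1 lower in both at an adjusted p under 0.05 with a fold under 1.5, as was Hopx, lower, in Wnt5a. Over all genes, 6.08% were called in SCM (1.12% lower) and 10.2% in Wnt5a (1.88% lower). On adjusted p alone, 3 of the 8 genes passed in SCM and 4 in Wnt5a, beside 11.9% and 21.8% of all genes. The comparisons with complete media share the same 6 control libraries. In bulk RNA, fewer cells of a type and less RNA per cell cannot be told apart.

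Smoc2 ranged from 1118 to 1392 CPM in complete media (median 1307). In SCM it ranged from 503 to 881 CPM (median 792), and in Wnt5a from 461 to 976 CPM (median 905). Every SCM and every Wnt5a library thus lay below every complete media library, which held for 2.53% and 4.81% of all genes in the lower direction. On the log2 scale Smoc2 fell by 0.77 in SCM (SE 0.169, adjusted p = 0.00209) and fell by 0.67 in Wnt5a (SE 0.168, adjusted p = 0.00371). Between libraries of the same number, the log2 difference lay between -1.15 and -0.59 in SCM and between -1.28 and -0.47 in Wnt5a. The call in Wnt5a needed Wnt5a + IgG replicate 1, the library with the lowest Smoc2 of its condition, since without it the log2 difference was -0.56 (adjusted p = 0.0139), a fold under 1.5.

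Ascl2 differed in the other direction. Its libraries ranged from 19.1 to 36.2 CPM in complete media (median 27.4), from 29.9 to 53.8 CPM in SCM (median 37.4) and from 30.4 to 42.1 CPM in Wnt5a (median 37.4). The groups overlapped, yet Ascl2 was higher than in complete media in 6 of 6 numbers in both conditions. The log2 difference was 0.51 in SCM (SE 0.133, adjusted p = 0.00985) and 0.41 in Wnt5a (SE 0.133, adjusted p = 0.0234). With only the compared groups in the model the adjusted p was 0.0510 in SCM and 0.0534 in Wnt5a, and in Wnt5a it was also 0.0522 without a filter on low counts and 0.0549 with voom on quantile-normalized values. In Wnt5a the adjusted p was 0.0784 without complete media replicate 4, the library with the lowest Ascl2, and it was 0.0677, 0.0593 and 0.0639 without Wnt5a + IgG replicate 1, 3 or 5. Ascl2 passed the fold of 1.5 in SCM once complete media replicate 1 was left out (log2 difference 0.60, adjusted p = 0.00248).

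Lgr5, the receptor itself, ranged from 138 to 292 CPM in complete media (median 204), from 70.7 to 238 CPM in SCM (median 140) and from 134 to 194 CPM in Wnt5a (median 178). The ranges overlapped widely. Lgr5 was lower than in the complete media library of the same number in 6 of 6 numbers in both conditions. Without the number in the model the log2 difference was -0.54 in SCM (SE 0.219, adjusted p = 0.110) and -0.27 in Wnt5a (SE 0.218, adjusted p = 0.419, or -0.14 without complete media replicate 3). Under the replicate block, the SCM difference was -0.58 with an adjusted p of 0.00128, just short of the fold of 1.5, and that in Wnt5a was -0.24 (adjusted p = 0.186). Without SCM + IgG replicate 3, which had the highest Lgr5 of its condition, the SCM difference was called in the model without the block (-0.75, adjusted p = 0.0183).

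Olfm4 ranged from 303 to 548 CPM in complete media (median 510), from 413 to 754 CPM in SCM (median 684) and from 264 to 863 CPM in Wnt5a (median 646). Its libraries overlapped in both comparisons, and it did not pass the test without the block, with a log2 difference of 0.44 in SCM (SE 0.263, adjusted p = 0.315) and of 0.38 in Wnt5a (SE 0.262, adjusted p = 0.338). Within numbers the SCM difference was nearly constant, from 0.42 to 0.46 in 6 of 6 numbers. In Wnt5a it was positive in 5 of 6 numbers and lay between -0.19 and 0.66. The block brought the adjusted p to 0.00919 in SCM (log2 difference 0.44) and 0.0450 in Wnt5a (log2 difference 0.33), both with a fold under 1.5.

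Of the reserve markers, Hopx ranged from 385 to 445 CPM in complete media (median 401), from 267 to 381 CPM in SCM (median 328) and from 179 to 368 CPM in Wnt5a (median 296). Neither treated group overlapped complete media. The log2 difference was -0.30 in SCM (SE 0.121, adjusted p = 0.105) and -0.53 in Wnt5a (SE 0.121, adjusted p = 0.00170). In SCM the adjusted p was 0.0316 with the replicate block and 0.0368 without Wnt5a + IgG replicate 1. It was 0.0138 with only the compared groups in the model and 0.0421 with number 1 left out in every condition. The Wnt5a difference was past a fold of 1.5 without Wnt5a + IgG replicate 2 (-0.62) or replicate 3 (-0.59). An antisense gene, Hopxos, shares 412 of the 1516 exon bases of Hopx (27.2%), at chr5:77094866-77095277, and the library kit does not mark the strand, so that reads of the shared bases cannot be assigned. Hopxos averaged 199 CPM in complete media (SD 19.1, n = 6), 143 CPM in SCM (SD 21.4) and 114 CPM in Wnt5a (SD 19), with log2 differences of -0.48 (adjusted p = 0.00691) and -0.80 (adjusted p = 1.27e-05), and its part in the Hopx values was not tested.

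Lrig1 ranged from 212 to 304 CPM in complete media (median 249), from 124 to 228 CPM in SCM (median 186) and from 149 to 221 CPM in Wnt5a (median 191). A few treated libraries reached into the range of complete media. The log2 difference was -0.50 in SCM (SE 0.135, adjusted p = 0.0127) and -0.47 in Wnt5a (SE 0.135, adjusted p = 0.00989), with 6 of 6 numbers lower in each. Without SCM + IgG replicate 1, which had the lowest Lrig1 of the 36 libraries, the adjusted p in SCM was 0.0514.

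Bmi1 and Msi1 did not pass the test. Bmi1 ranged from 18.3 to 24.8 CPM in complete media, from 13.1 to 21.7 CPM in SCM and from 17.5 to 23.2 CPM in Wnt5a. Its log2 difference in SCM was -0.29 (SE 0.139, adjusted p = 0.183), lower in 6 of 6 numbers, and that in Wnt5a was smaller than its standard error. Msi1, with 6 to 74 counts in a library, ranged from 1.22 to 3.10 CPM in complete media, from 0.70 to 2.34 CPM in SCM and from 1.15 to 2.64 CPM in Wnt5a. Its differences were smaller than their standard errors in both comparisons, with a 95% interval from -0.88 to 0.58 in SCM and from -0.89 to 0.57 in Wnt5a, wide enough to hold a change of the size seen for Smoc2.

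**Figure D2:**
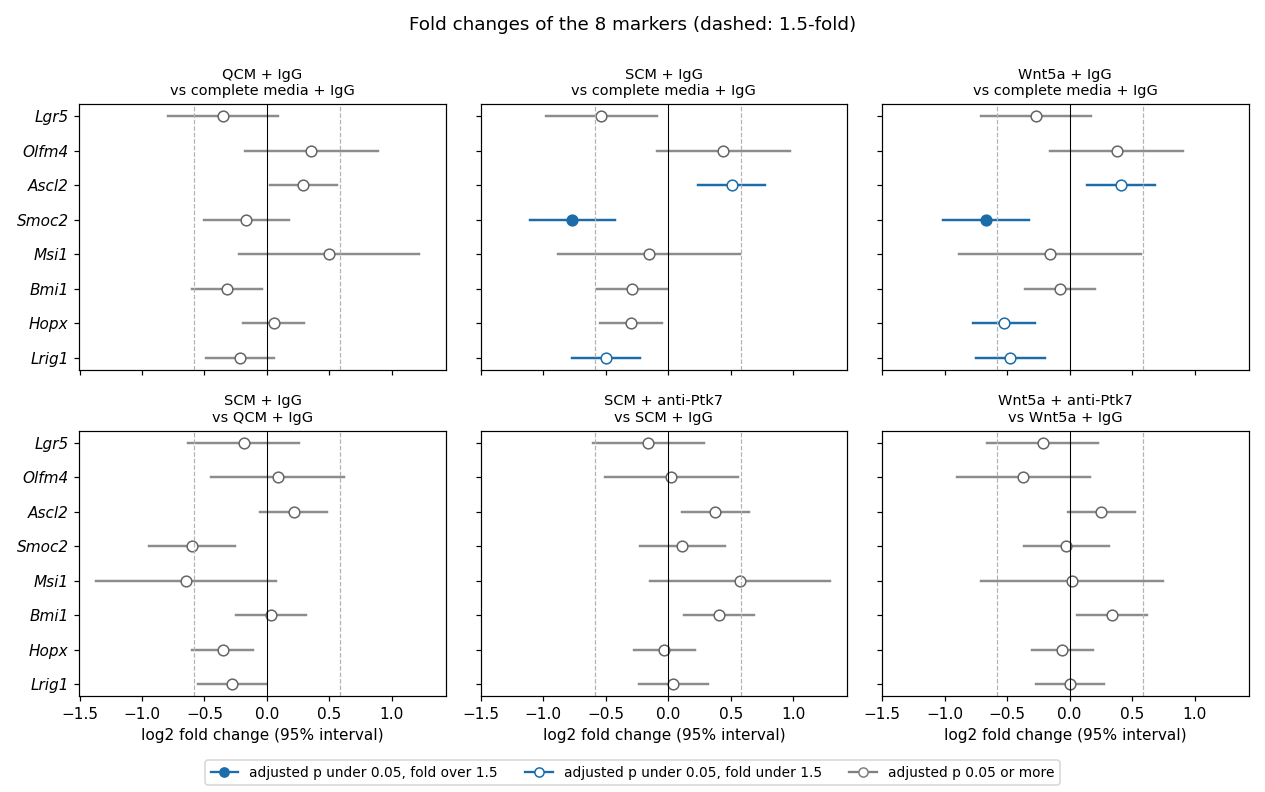
Log2 fold change (x axis) of the 8 genes (y axis) in 6 comparisons, from the model without a replicate block. Points are estimates, lines are 95% intervals, dashed lines mark a fold of 1.5, filled blue points passed the adjusted p and the fold, open blue points the adjusted p alone, and grey points neither. Smoc2 is the one filled point, at -0.77 in SCM and -0.67 in Wnt5a.

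In the block model, adjusted p alone was under 0.05 for 6 of the 8 genes in SCM, with Olfm4 and Ascl2 higher and Lgr5, Smoc2, Hopx and Lrig1 lower. In Wnt5a it was under 0.05 for 5 genes, with Olfm4 and Ascl2 higher and Smoc2, Hopx and Lrig1 lower. The shares of all genes passing in that model were 16.4% in SCM and 25.3% in Wnt5a. Over the 8 genes, the middle of the log2 fold changes (median) lay at -0.30 for SCM and -0.21 for Wnt5a, against 0.0068 and 0.0051 over all genes tested.

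Wnt5a and SCM were also compared directly. None of the 8 genes was called, none had an unadjusted p under 0.05 in edgeR's quasi-likelihood test, which 18.9% of all genes had, and 0.69% of all genes were called (1.67% in the block model). The log2 differences ran from -0.23 for Hopx (SE 0.121, adjusted p = 0.309) to 0.27 for Lgr5 (SE 0.219, adjusted p = 0.546). Bmi1 differed by 0.21 (SE 0.138, adjusted p = 0.426). The Hopx value was -0.12 without Wnt5a + IgG replicate 1, and that of Lgr5 was 0.13 without SCM + IgG replicate 1, 0.17 without SCM + IgG replicate 5 and 0.48 without SCM + IgG replicate 3. The 95% intervals of the 8 genes reached from -0.73 to 0.72, which does not show that both treatments act alike on these genes.

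QCM gives the levels in medium conditioned by fibroblasts that were not senescent. None of the 8 genes was called in QCM against complete media, where 0.374% of all genes were called (1.15% in the block model). An unadjusted p under 0.05 was found for 2 of the 8, Ascl2 and Bmi1, beside 12% of all genes. Lgr5 ranged from 91.3 to 220 CPM in QCM (median 172) and was lower than in complete media in 6 of 6 numbers, with a log2 difference of -0.35 (SE 0.218, adjusted p = 0.546), which was -0.22 without complete media replicate 3 and -0.23 without QCM + IgG replicate 5. Olfm4 ranged from 411 to 751 CPM (median 625) and was higher in 6 of 6 numbers, with a log2 difference of 0.35 (SE 0.262, adjusted p = 0.645). Ascl2 ranged from 25.8 to 40.3 CPM (log2 difference 0.29, SE 0.133, adjusted p = 0.370), and Bmi1 from 11.8 to 22.7 CPM (-0.32, SE 0.139, adjusted p = 0.327). Msi1 ranged from 2.15 to 3.66 CPM (0.50, SE 0.355, adjusted p = 0.623), and Lrig1 from 169 to 266 CPM (-0.22, SE 0.135, adjusted p = 0.547).

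Smoc2 and Hopx separated SCM from QCM. Smoc2 ranged from 921 to 1303 CPM in QCM (median 1208), above each of the 6 SCM libraries, and Hopx ranged from 395 to 462 CPM (median 418), again above each of them. Such a separation in the lower direction held for 1.1% of all genes. Without the block neither passed the test, with log2 differences of -0.60 for Smoc2 (SE 0.168, adjusted p = 0.0554) and -0.36 for Hopx (SE 0.121, adjusted p = 0.115), where 0.903% of all genes were called. In the block model Smoc2 was called (-0.61, adjusted p = 6.03e-06), where 3.2% of all genes were, and Hopx had an adjusted p of 0.0180, where 7.95% of all genes passed the adjusted p alone. Without the block, Hopx had an adjusted p of 0.0377 with only the compared groups in the model. With number 1 left out in every condition it was 0.0327. Smoc2 was also called without the block once QCM + IgG replicate 1 (-0.65, adjusted p = 0.0473), QCM + IgG replicate 5 (-0.66, adjusted p = 0.0391) or replicate 1 of SCM + anti-Ptk7, Wnt5a + IgG or Wnt5a + anti-Ptk7 was left out (-0.60 to -0.59, adjusted p = 0.0235 to 0.0434), of which the last 3 are not libraries of this comparison. Msi1 was lower in SCM in 6 of 6 numbers, with a log2 difference of -0.65 (SE 0.355, adjusted p = 0.357), and Lrig1 differed by -0.28 (SE 0.135, adjusted p = 0.278). Ascl2 differed by 0.22 (SE 0.132, adjusted p = 0.419), or by 0.11 to 0.28 with single libraries left out. For Lgr5 (-0.19), Olfm4 (0.086) and Bmi1 (0.030) the differences between SCM and QCM were smaller than their standard errors.

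The antibody comparisons asked whether blocking Ptk7 changed the levels seen in SCM or in Wnt5a. None of the 8 genes was called with the antibody in SCM, where 1.23% of all genes were called (2.57% in the block model), or in Wnt5a, where 0.884% were (1.65% in the block model). An unadjusted p under 0.05 was found for 2 of the 8 in SCM and 1 in Wnt5a, beside 17.1% and 15% of all genes. Smoc2 ranged from 584 to 994 CPM in SCM + anti-Ptk7 (median 819) and from 440 to 974 CPM in Wnt5a + anti-Ptk7 (median 891). Hopx ranged from 252 to 387 CPM and from 199 to 320 CPM, and Lrig1 from 149 to 237 CPM and from 145 to 218 CPM, in the same order of conditions. For Smoc2, Hopx and Lrig1 all antibody differences were smaller than their standard errors, with 95% intervals between -0.37 and 0.45.

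Ascl2 and Bmi1 had higher levels with the antibody than with IgG, without passing the test. Ascl2 ranged from 42.3 to 59.1 CPM in SCM + anti-Ptk7 (median 51.1) and from 40.4 to 48.7 CPM in Wnt5a + anti-Ptk7 (median 43.3). The log2 difference from IgG was 0.38 in SCM (SE 0.131, adjusted p = 0.117, or 0.0355 with the replicate block, where 6.78% of all genes passed the adjusted p), positive in 6 of 6 numbers, and 0.25 in Wnt5a (SE 0.131, adjusted p = 0.364), positive in 5 of 6. Without SCM + IgG replicate 5, the highest of its condition, the adjusted p in SCM was 0.0357. Bmi1 was higher in 6 of 6 numbers in both, ranging from 18.8 to 27.6 CPM in SCM + anti-Ptk7 and from 22.2 to 28.4 CPM in Wnt5a + anti-Ptk7. Its log2 differences were 0.40 (SE 0.138, adjusted p = 0.111) and 0.34 (SE 0.138, adjusted p = 0.205), and neither passed with the block. Msi1 ranged from 1.42 to 5.41 CPM in SCM + anti-Ptk7 and from 0.54 to 3.13 CPM in Wnt5a + anti-Ptk7. Its log2 difference from IgG in SCM was 0.58 (SE 0.356, adjusted p = 0.423), or 0.24 without SCM + anti-Ptk7 replicate 4, its highest library, and that in Wnt5a was smaller than its standard error. Lgr5 ranged from 85.8 to 154 CPM in SCM + anti-Ptk7 (median 134) and from 116 to 168 CPM in Wnt5a + anti-Ptk7 (median 157), lower than with IgG in 5 of 6 and 6 of 6 numbers, with both differences smaller than their standard errors. Olfm4 ranged from 376 to 834 CPM in SCM + anti-Ptk7 (median 752) and from 168 to 673 CPM in Wnt5a + anti-Ptk7 (median 541), and in Wnt5a it was lower with the antibody in 6 of 6 numbers (log2 difference -0.37, SE 0.262, adjusted p = 0.559, or -0.42 with 0.0362 in the block model, where 4.94% of all genes passed). Without the block this difference was -0.21 without Wnt5a + anti-Ptk7 replicate 1 and -0.25 without Wnt5a + IgG replicate 6.

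The antibody's effect in Wnt5a was tested against its effect in SCM. The adjusted p was 0.999 for each of the 8 genes, none had an unadjusted p under 0.05, and 0% of all genes tested were called by edgeR's quasi-likelihood test, with 602 genes (3.88%) at an unadjusted p under 0.05 and 3 called with the replicate block. The differences of the 2 effects were -0.56 for Msi1 (SE 0.505) and -0.39 for Olfm4 (SE 0.371). With single libraries left out they ran, for Msi1, from -0.80 (without Wnt5a + anti-Ptk7 replicate 6) to -0.21 (without SCM + anti-Ptk7 replicate 4) and, for Olfm4, from -0.55 (without Wnt5a + IgG replicate 1) to -0.23 (without Wnt5a + anti-Ptk7 replicate 1).

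The ratio of Olfm4 to Lgr5 within a library does not depend on how libraries are scaled. In complete media it ranged from 1.83 to 2.72 (median 2.32, ratio of CPM). It ranged from 2.71 to 5.54 in QCM (median 3.71), from 3.01 to 6.08 in SCM (median 5.03) and from 1.98 to 4.96 in Wnt5a (median 3.57). The SCM libraries did not overlap those of complete media, and the ratio was higher than in the complete media library of the same number in 6 of 6 numbers in QCM, 6 of 6 in SCM and 5 of 6 in Wnt5a. On the log2 scale the mean ratio was 1.21 ± 0.20 in complete media, 1.94 ± 0.36 in QCM, 2.25 ± 0.38 in SCM and 1.77 ± 0.43 in Wnt5a (SD, n = 6). Between SCM and QCM the mean log2 difference was 0.31, higher in 5 of 6 numbers, with overlapping libraries. With the antibody the mean log2 ratio was 2.31 ± 0.53 in SCM and 1.54 ± 0.60 in Wnt5a. No test was made of this ratio, since the pair was chosen with the values of its genes known.

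**Figure D3:**
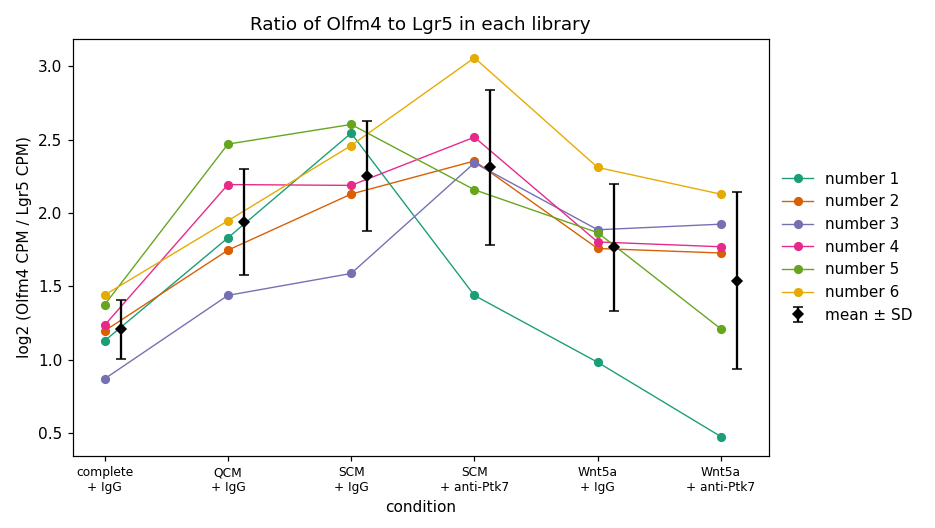
Log2 ratio of Olfm4 CPM to Lgr5 CPM (y axis) in each library by condition (x axis), with lines that join libraries of the same replicate number and black diamonds for the mean ± SD of 6 libraries. The mean is 1.21 in complete media + IgG and 2.25 in SCM + IgG, and number 1 drops to 0.48 in Wnt5a + anti-Ptk7.

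The replicate number carried much of the spread of the secreted and receptor genes of the crypt base. Of the sum of squares of log2 CPM over the 36 libraries, the number held 69.4% for Olfm4, 52.9% for Lgr5 and 38.5% for Smoc2, and 99.9%, 98.9% and 94.7% of all genes tested had a smaller share. It held 26.4% for Lrig1, 17.6% for Hopx, 15.4% for Msi1, 14.7% for Ascl2 and 5.90% for Bmi1, against a median of 14% over all genes. The condition held most for Ascl2 (64.3%), Hopx (60.4%), Smoc2 (52.4%) and Bmi1 (50.0%), against a median of 29.3% over all genes, and 62.7% of the spread of Msi1 was left to neither. Libraries of number 1 were the lowest for Olfm4, on average 0.81 below the mean of all libraries on the log2 scale, and stood 0.51 below it for Smoc2 and 0.38 below it for Lgr5. Libraries of number 5 stood 0.45 below the mean for Lgr5 and 0.34 below it for Olfm4, whereas for Ascl2 they stood 0.20 above it and those of number 1 stood 0.12 above it. Whether the number stands for the mouse, the culture or a processing batch cannot be told apart here.

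**Figure D4:**
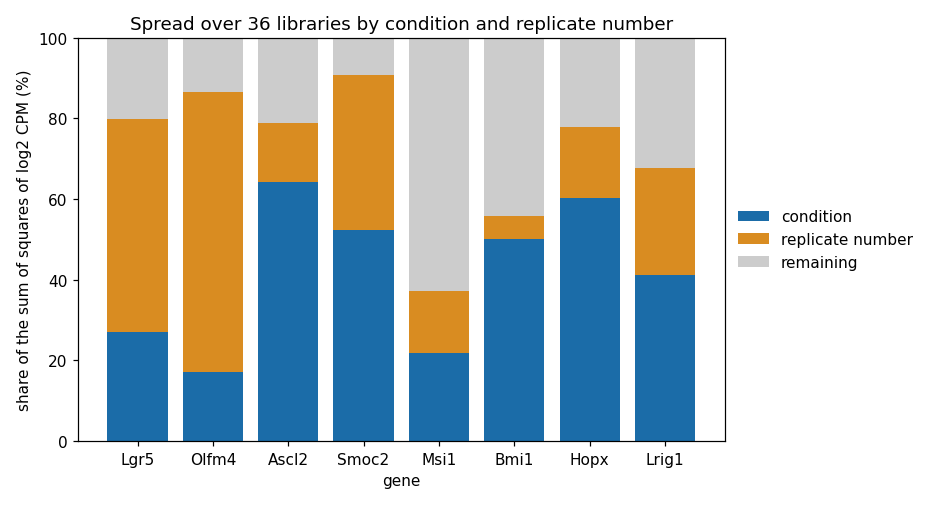
Share of the sum of squares of log2 CPM over 36 libraries (y axis, percent) that lies between conditions, between replicate numbers and in neither, for each gene (x axis, stacked bars). The number's share is largest for Olfm4 (69.4%) and smallest for Bmi1 (5.90%).

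Over the 36 libraries, which share conditions, replicate numbers and scaling, Smoc2 had a Pearson r of log2 CPM of 0.81 with Hopx and 0.80 with Lrig1, and Hopx and Lrig1 had r = 0.58. Lgr5 correlated with Lrig1 (r = 0.72) and with Smoc2 (r = 0.64). Ascl2 had negative values, with r between -0.59 and -0.54 for Smoc2, Lrig1, Lgr5 and Hopx. Olfm4 and Smoc2 had r = 0.50 over all libraries and r = 0.90 once the mean of each condition was removed. Among all genes tested, those closest to Smoc2 were Irf8 (r = 0.95), Aqp1 (0.95) and Aldh1b1 (0.94), and those closest to Hopx were Spc24 (0.95), Phpt1 (0.94) and Mtfp1 (0.94). Those closest to Lgr5 were Maob (0.84), Scd1 (0.82) and Clic6 (0.81), and Scd1 (0.84) was also among the 3 closest to Lrig1, after Cluh (0.86) and Insig1 (0.85). Ascl2 was closest to Ttc22 (0.85), Tmem37 (0.83) and Hyal2 (0.80), and genes close to Olfm4 were Ifitm3 (0.82) and Spink1 (0.76). Bmi1 was closest to Pcmtd1 (0.82), Cggbp1 (0.80) and Efr3a (0.80), while for Msi1 no gene passed 0.70 (Ndufaf2, 0.69). These values describe 36 libraries and carry no test.

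Other genes of the crypt base columnar cell did not follow one direction. Of 23 such genes, all tested, 4 rose and 3 fell in SCM, and 7 rose and 3 fell in Wnt5a, and the list's median was 0.22 and 0.32 on the log2 scale. Igfbp4, a secreted IGF-binding protein, had a mean of 96.4 CPM in SCM (SD 15, n = 6) and 142 CPM in Wnt5a (SD 16.7), after a rise of 1.68 and 2.25 from complete media on the log2 scale. Gkn3 rose from 1.72 ± 0.82 CPM by 2.31 and 2.15, the hyaluronan receptor and Wnt target Cd44 rose from 109 ± 22.9 CPM by 0.80 and 1.21, and Nkd1, a feedback inhibitor of Wnt signaling, rose by 1.94 and 1.71 from a level of 0.57 ± 0.39 CPM. Soat1, which esterifies cholesterol, went from 379 ± 44.6 CPM to 242 ± 29.1 in SCM and 245 ± 34 in Wnt5a, with log2 fold changes of -0.64 and -0.63, and the water channel Aqp4 and the transcription factor Myb fell as well in both. In Wnt5a alone Tnfrsf19, Rnf43 and Sp5 were called higher, but the difference from SCM was not called for any gene of the list. Axin2, a canonical Wnt target, had log2 differences of -0.16 in SCM and -0.33 in Wnt5a (adjusted p = 0.623 and 0.176). In SCM against QCM, Cd44, Igfbp4 and Gkn3 rose, beside 0.761% of all genes. Gkn3 rose in QCM against complete media, beside 0.355% of all genes. The block model also called 2 genes of the list higher with anti-Ptk7 in SCM, against 0 without the block, beside 1.05% and 0.581% of all genes.

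**Figure D5:**
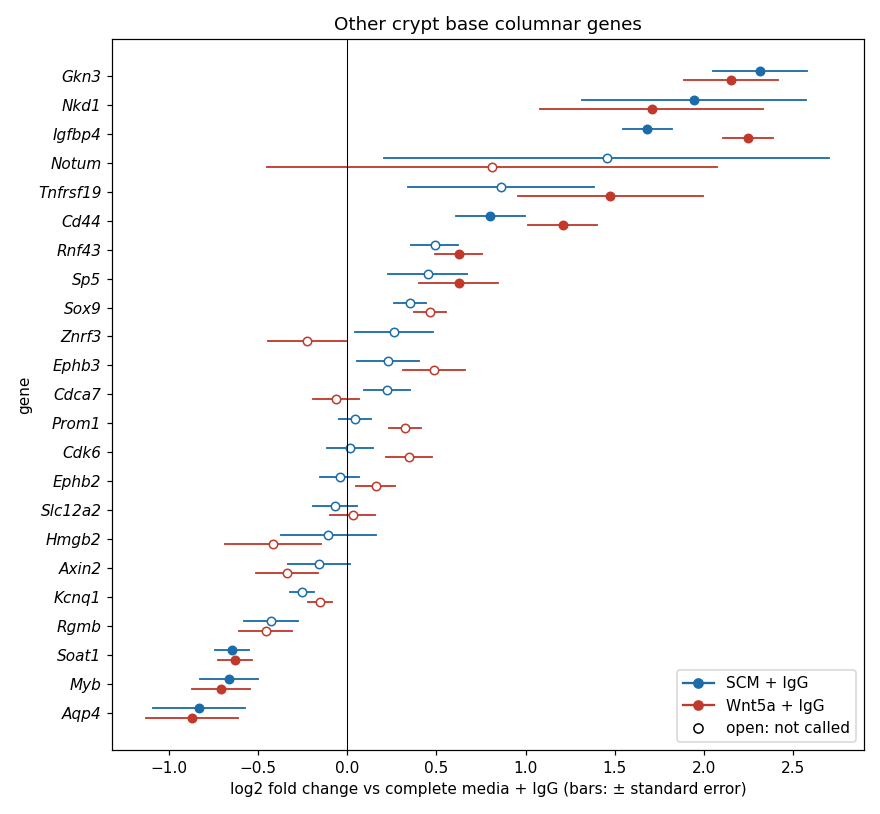
Log2 fold change against complete media + IgG (x axis) of 23 other crypt base columnar genes (y axis) in SCM + IgG (blue) and Wnt5a + IgG (red). Points are estimates, bars are ± 1 standard error, and filled points were called. Igfbp4, Gkn3 and Nkd1 lie above 1.5 in both, and Soat1, Myb and Aqp4 lie below -0.6 in both.

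Of 9 other genes tied to reserve or injury-associated stem cells, 5 rose in both SCM and Wnt5a and none fell, with medians of 0.95 and 0.87, beside 4.96% of all genes called higher in SCM and 8.29% in Wnt5a. Clu, a marker of revival stem cells after injury, rose by 4.57 in SCM and 6.21 in Wnt5a on the log2 scale from 51.0 ± 29.8 CPM in complete media. Among the others, Anxa1 rose by 1.69 and 2.05, Krt19 by 0.95 and 1.17, and Ly6a, which encodes Sca-1, by 1.00 and 0.87. Hopx, Lrig1 and Bmi1 were not called in the same comparisons. With anti-Ptk7, Ly6a fell by 1.73 in SCM and fell by 1.55 in Wnt5a, and Tert, the catalytic subunit of telomerase, rose by 1.02 in Wnt5a. Clu also rose in QCM, by 1.91, and in SCM against QCM, by 2.66. The block model called 4 genes of the list higher in SCM against QCM, where 2 were called without it, while the share of all genes called higher was 2.74% with the block and 0.761% without it. It called 3 lower in SCM and 2 lower in Wnt5a with anti-Ptk7, where 1 each was called without it and the block model called 1.52% and 0.8% of all genes lower.

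Among paralogs and partners of the 8 genes, 16 of 21 were tested. Egfr, one of the ErbB receptors that Lrig1 restrains, rose from 39.1 ± 5.60 CPM by 0.91 in SCM and 1.85 in Wnt5a, and Lrig3, a paralog of Lrig1, fell by 0.79 in SCM and fell by 0.64 in Wnt5a from 82.2 ± 5.04 CPM. Olfm1 fell by 1.28 in SCM. The other 13 tested genes were not called in SCM, where 4.96% of all genes were called higher and 1.12% lower. The list's median was 0.086 in SCM and 0.13 in Wnt5a. The block model called 2 higher in Wnt5a, where 1 was called higher without it. Of all genes, 8.62% were called higher in Wnt5a with the block and 8.29% without it.

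Of 11 Notch genes, which act upstream of Olfm4, 9 were tested and none was called in SCM (median 0.019). In Wnt5a the receptor Notch2 rose by 1.35 and the ligand Jag1 by 0.95, beside 8.29% of all genes called higher. The list's median in Wnt5a was -0.084. Nrarp, a Notch target, rose by 0.69 with anti-Ptk7 in SCM, where 0.581% of all genes were called higher.

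Markers of the daughter cells moved in the same libraries, and their part in the levels of the 8 genes was not tested. Of 10 enterocyte markers, 4 rose in SCM (Alpi, Apoa1, Apoa4, Fabp1), 3 rose in Wnt5a and 3 in QCM (4 in the block model), and none fell. Of all genes, 4.96% were called higher in SCM, 8.29% in Wnt5a and 0.355% in QCM (1.07% in the block model). The shares called lower were 1.12% in SCM and 1.88% in Wnt5a. The median of the summed enterocyte level was 5241 CPM for complete media (4523 to 6291), 6109 for SCM (5068 to 6984) and 5409 for Wnt5a (3727 to 6406), which overlap. Of 7 Paneth markers tested, Ang4 and Mmp7 rose in both SCM and Wnt5a and 5 were not called. The list's median was 0.19 in SCM and -0.29 in Wnt5a on the log2 scale. The summed Paneth level had a median of 4042 CPM in complete media (3820 to 4429). It was 4093 in SCM (3389 to 4587) and 3730 in Wnt5a (2070 to 3987), which overlap complete media. Of 8 goblet markers none was called in any of the comparisons without the block. With the block 1 was lower in Wnt5a than in SCM, beside 0.639% of all genes. Of 9 enteroendocrine markers Pyy rose and Neurog3 fell in both, and of 5 tuft markers tested none was called in SCM (1 was higher in the block model, which called 7.31% of all genes) and 3 rose in Wnt5a (Dclk1, Trpm5, Avil). The summed tuft level was 8.96 to 14.2 CPM in complete media, up to 16.7 in SCM and 22.7 to 36.1 in Wnt5a, where it did not overlap complete media. Of 10 proliferation genes none was called in SCM (median -0.19) or in Wnt5a (median -0.25). Their summed level was 2366 to 2649 CPM in complete media, 2014 to 2251 in SCM and 1921 to 2355 in Wnt5a, and every library of SCM and Wnt5a lay below every complete media library.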

How the data were processed

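RNA of 36 organoid cultures was made into cDNA with the Smart-Seq V4 kit, which does not mark the strand, and libraries with Nextera XT. Per the submitters' processing notes and the paper's methods, reads were filtered with HTSeqGenie, aligned to the mouse genome (mm10) with GSNAP and counted in coding sequences, and voom with limma was applied to quantile-normalized values. The gene annotation and the use of strand in counting are not given in the sources used here. The authors deposited whole-number counts per gene for each library, without normalization, and 9581589 to 21029769 counts per library set the precision. A series-wide table held the same counts in all 36 libraries and was not used further.

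Counts were fitted with edgeR 4.0.16 (R 4.3.3), after filterByExpr and TMM scaling, with 1 mean per condition over all 36 libraries, glmQLFit and glmQLFTest (two-sided). Benjamini-Hochberg adjustment ran over 15497 genes, and calls needed both an adjusted p under 0.05 and a fold above 1.5. Standard errors follow from the fold change and the F statistic. Log2 CPM used a prior count of 2. Genes were matched to GENCODE GRCm38 symbols, with 147 identifiers left without one. Condition and replicate number came from the sample labels. Same-numbered libraries of different conditions had deviations from the condition means that correlated by 0.092 on average (34 of 90 pairs over 0.1), against -0.018 for different numbers. In the block model and in the comparisons within numbers, same-numbered libraries were taken as pairs. The design names 6 mice with identifiers 1 to 6 as the source of the crypts. Which number is which mouse is not stated, and most pairs were under 0.1. Block values are given where they changed a result on a member, or moved a printed share of all genes or list count by over 1.5 times. The main model has no block, since the paper's methods name none, and so leaves this pairing out. In SCM against complete media the standard errors of Olfm4 and Lgr5 were 0.263 and 0.219 in the main model. They were 0.120 and 0.128 in the block model. All members and gene lists were chosen with earlier results of these data known. Named genes were all 8 members, the 3 genes with the highest correlation to each member, and list genes called in a comparison, with a few uncalled ones. Some genes under this rule are not reported here. Individual log2 differences of the 8 genes are given where they exceed their standard error. On simulated counts for SCM against complete media with 15497 genes, the test recovered 66 of 94 genes changed 2-fold and 94 of 106 changed 4-fold, with 9 false calls. Alternatives were limma 3.58.1 with voom, DESeq2 1.42.0, other scalings, filters, prior counts and fold cutoffs, the replicate block, and each library left out.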

Additional observations from a re-analysis of the deposited data

Results flagged for a closer look

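Of 54 groups of 6 libraries examined (8 members and the log2 ratio of Olfm4 to Lgr5 in 6 conditions), 1 held a library that stood apart from the other 5. It was Msi1 in SCM + IgG, where replicate 5 was the lowest, at 0.70 CPM, and the gap to the nearest library was 0.742 of the range of the group on the log2 CPM scale, above Dixon's 95% critical value for 6 samples. Chance alone marks about 1 in 20 groups in this way. Msi1 was not called in any of the comparisons.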

How the results depend on the processing

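No member changed its direction under any alternative, among the 35 of 64 fold changes that exceeded their standard error. The number of members called in SCM against complete media, 1 in the report, was 3 without a fold cutoff, 6 with the replicate block and no fold cutoff, 2 with number 1 left out in every condition, and 0 with a fold over 2 or with glmTreat, a test against the fold of 1.5, and 1 to 2 when single libraries were left out. In Wnt5a against complete media, also 1, it was 4 without a fold cutoff, 5 with the replicate block and no fold cutoff, 2 with voom on quantile-normalized values, where Hopx was called (-0.59, adjusted p = 0.00159), 0 with a fold over 2 or glmTreat, and 0 to 2 with single libraries left out. In SCM against QCM, 0 in the report, it was 1 with the replicate block, with at least 10 counts, with only the compared groups, with voom and TMM and with DESeq2, 2 with the block and no fold cutoff, and 0 to 1 with single libraries left out; the 1 member was Smoc2. With anti-Ptk7 it was 1 in SCM (Ascl2) and 1 in Wnt5a (Olfm4) with the block and no fold cutoff. It was 0 in each alternative for QCM against complete media, Wnt5a against SCM and the difference of the antibody effects. The 2 alternatives with number 1 left out or with the block and no fold cutoff were chosen after seeing the data. Why the counts moved was not tested, other than where an alternative drops the fold cutoff or asks for a larger fold. Msi1 got no adjusted p from DESeq2 in some comparisons. Over all genes, the calls ran from 210 (glmTreat) to 2536 (block, no cutoff) around 942 in SCM, from 491 to 3915 around 1576 in Wnt5a and from 4 to 1232 around 140 in SCM against QCM. They ran from 2 to 431 around 58 in QCM, from 12 to 1051 around 190 and from 2 to 766 around 137 with anti-Ptk7 in SCM and in Wnt5a, from 1 to 1012 around 107 in Wnt5a against SCM, and from 0 to 3 for the difference of the antibody effects. With single libraries left out, calls in SCM against QCM ran from 35 (without QCM + IgG replicate 3) to 260 (without Wnt5a + anti-Ptk7 replicate 1), in Wnt5a against SCM from 20 (without Wnt5a + IgG replicate 5) to 179, and with anti-Ptk7 from 110 (without SCM + IgG replicate 1) to 231 in SCM and from 81 (without Wnt5a + anti-Ptk7 replicate 5) to 158 in Wnt5a. Depth limits Msi1 most, with 6 to 74 counts per library.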
